A study of Mus musculus with 12 samples.

Results

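The heat shock proteins and DnaJ chaperones of the mouse were described in muscle stem cells (MuSCs) that were freshly isolated, cultured, or cultured and then mechanically compressed. The genes were taken by their symbols: every gene named Hspa, Hspb, Hspd, Hspe, Hsph or Hsp90, or Dnaja, Dnajb or Dnajc, with its number, which gave 72 of the 55335 genes in the count files. Of these, 66 had enough reads to be tested and 6 did not.

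Molecular chaperones hold unfolded proteins and help them to fold, refold or be degraded. The Hsp70 proteins do this in cycles of ATP hydrolysis, which DnaJ (Hsp40) proteins start and nucleotide exchange factors such as the Hsp110 proteins reset, while Hsp90 proteins act on signalling proteins that are nearly folded and small heat shock proteins hold clients without ATP. Some members are made all the time (constitutive), others mainly when unfolded proteins release the transcription factor Hsf1 (inducible), and separate sets serve the endoplasmic reticulum (ER) and the mitochondria. In skeletal muscle, chaperones such as Hspb8 with the co-chaperone Bag3 are known for clearing proteins damaged by mechanical load.

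The study asked how compressing the upper surface of MuSCs affects their state. Cells carrying ZsGreen under Pax7 control were sorted by flow cytometry from the hindlimb muscles of Pax7-ZsGreen mice aged 3 to 6 months, and RNA sequencing was done on 12 bulk libraries, 3 in each of 4 groups. F cells were collected at the sort without culture. All other cells grew on plastic coated with Matrigel and fibronectin, in a medium with FGF, chicken embryo extract, horse serum and fetal bovine serum: 2d-U cells for 2 days without compression, 5d-U cells for 5 days without compression, and 2+3d-C cells for 2 days followed by 3 days under a silicone film whose short pillars limit the height of the cells. All 4 groups shared the reporter strain. Cultured cells were lysed in TRIzol once the medium and, for 2+3d-C, the pillar device had been taken off. Numbers after a group name are the replicate numbers in the labels. Nothing in the labels says that the libraries of a group came from separate mice or cultures, so the p-values measure the spread between these libraries, which may be partly technical. In bulk RNA, fewer cells of a type and less RNA per cell cannot be told apart.

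The libraries held 12540745 to 62424851 reads on genes. Pax7, the defining transcription factor of MuSCs, was present in every library, at 1.52 RPKM in the lowest and 15.1 RPKM in the highest. Of the other listed MuSC markers, Myf5, Myod1, Vcam1, Cdh15 and Itga7 also had reads in every library. Calcr had no read in 2d-U 2, 2d-U 3 and 5d-U 2, and Chrdl2 had none in 2d-U 2. A set of 4 libraries stood apart in their reads on 2106 genes of families that are silent in muscle: F 4, F 5, 5d-U 1 and 5d-U 6 had 5.03, 7.13, 3.81 and 0.634 such reads per kb of exon, and the other 8 had 0.00936 to 0.22. Every comparison below with F or 5d-U includes these libraries, and the counts without them are given where they bear on a result. Markers of other cells also moved between the groups. Summed endothelial markers (5 genes) were 807 to 1264 CPM for F, 1.8 to 5.52 for 2d-U, 1.54 to 25.5 for 5d-U and 76.8 to 165 for 2+3d-C. Summed fibroadipogenic markers (5 genes) were 2091 to 5718 CPM for F, 0.705 to 11.4 for 2d-U, 8.65 to 54.1 for 5d-U and 443 to 972 for 2+3d-C. Summed immune markers (5 genes) were 394 to 1025 CPM for F, 0.665 to 2.44 for 2d-U, 1.47 to 116 for 5d-U and 5.48 to 76.2 for 2+3d-C, with Ptprc and Cd3e at 0 in all 3 compressed libraries. Summed smooth muscle and pericyte markers (5 genes) were 679 to 902 CPM for F, 62.7 to 87.8 for 2d-U, 58.8, 638.5 and 730.2 for 5d-U 1, 2 and 6, and 251 to 399.7 for 2+3d-C. In 2d-U and 5d-U most of that sum was Acta2, and Myh11, Rgs5 and Kcnj8 had no read in 2d-U. The part of these marker sets in the results below was not tested.

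Member genes took 1.35% to 1.78% of the reads in 5d-U, 1.68% to 1.85% in 2d-U and 2.91% to 3.20% in 2+3d-C. In F they took 4.80% in replicate 1 but 2.10% and 1.89% in replicates 4 and 5. By mean RPKM (reads scaled by exon length and library size), the ER chaperone Hspa5 was the most abundant member, followed by Hsp90ab1, Hspa8, Hspb1 and Hspd1. Scaled by TMM, the summed level of the 72 members was 13990 to 20210 CPM in 5d-U and 34050 to 44060 CPM in 2+3d-C, so the compressed and uncompressed day-5 libraries did not overlap. That separation rested on Hspa5, and the ranges would overlap without it. Hspa5 held 839668 of 1815866 member reads in 2+3d-C 4 and 33409 of 413202 in 5d-U 6. F 1, at 49130 CPM, stood above F 4 and F 5, at 17480 and 15700 CPM.

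Each pair of groups was compared with edgeR's quasi-likelihood test over 22635 genes, and a gene was called when its Benjamini-Hochberg adjusted p was under 0.05. In 2+3d-C against 5d-U, 16 members were higher and 15 lower of 66 tested, where 9.14% of all genes tested were called higher and 13.4% lower. With 1 library left out, 6 were lower without 5d-U 6 and 8 without 2+3d-C 4 or 2+3d-C 10. The fit of the 8 libraries with few reads in silent gene families, which leaves only 5d-U 2 in the 5d-U group, is described below. In 2+3d-C against 2d-U, 19 were higher and 6 lower, against 16% and 8.63% of all genes. The split in that comparison became 16 higher and 13 lower when the libraries were scaled by their size without TMM. Cultured and fresh cells also differed. In 2d-U against F, 11 members were higher and 17 lower, against 10.6% and 33.3% of all genes, and in 5d-U against F, 14 were higher and 10 lower, against 11.6% and 8.9%. Without TMM the second of these became 11 higher and 13 lower. The share of all genes called was not computed for the fits without TMM or with 1 library left out, so their counts may follow the overall rate of calls.

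Of the 31 members called in 2+3d-C against 5d-U, 18 lost the call in those 8 libraries: Hspa8, Hspa13, Hspa14, Hsph1, Dnajb2, Dnajb4, Dnajc2, Dnajc5, Dnajc12, Dnajc15, Dnajc19, Dnajc24, Dnajc27, Dnajc28, Hspb2, Hspb6, Hspb8 and Hspb11. With all 12 libraries and a term for the 4 others, 16 lost it: Hspa1a, Hspa8, Hspa13, Hsph1, Dnajb4, Dnajc3, Dnajc5, Dnajc12, Dnajc14, Dnajc19, Dnajc25, Dnajc28, Hspb2, Hspb6, Hspb8 and Hspb11. Each kept its direction. Those 8 libraries hold only 5d-U 2 of the 5d-U group and only F 1 of the F group. A call lost there, here and below, cannot be told apart from the loss of libraries.

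Few members were called between compressed and fresh cells. In 2+3d-C against F, 1 member was called higher and none lower, where 1.94% and 4.47% of all genes were called. At an unadjusted p under 0.05 the counts were 11 higher and 8 lower, against 8.11% and 28.7% of all genes, and DESeq2 called 6 higher and 5 lower, against 4.14% and 16.5%. Without F 1, 15 members were called higher and 7 lower, and the share of all genes called was not computed for that fit. Its median log2 fold change over all genes was -1.96, beside -0.76 with all 12 libraries. Between the uncompressed days of culture the calls were as few. In 5d-U against 2d-U, 1 member was called higher and none lower, against 1.87% and 0.243% of all genes. At an unadjusted p under 0.05 there were 15 higher and 0 lower, against 33% and 2.06%, and DESeq2 called 7 higher and 0 lower, against 13.2% and 2.14%. Leaving out 1 library gave between 0 and 6 members called higher in 5d-U against 2d-U, again without a share of all genes to set beside it.

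A fold change here is relative to the scaling of each library, and the median gene was itself off 0. In 2+3d-C against 5d-U the median log2 fold change over all tested genes was -1.05 with TMM, -0.90 with DESeq2's size factors, -1.21 without TMM and -0.24 after the reads expected from silent families were subtracted. The median over the 66 members in the same comparison was -0.35, or -0.26 without Dnajc22, which had no read in 2+3d-C. In 2+3d-C against 2d-U the medians were 0.66 for the members and 0 for all genes. The members' median there was 0.57 with Dnajc6 and Hspb3, which had no read in 2d-U, set to the bound that 3 reads allow. Dnajc22 and Dnajc28 gave no such bound and were left out of it. In the comparisons with F the members' medians were 0.1 for 2+3d-C, -0.55 for 2d-U and 0.31 for 5d-U, beside -0.76, -1.63 and -0.41 for all genes. No called member changed sign under DESeq2's size factors, without TMM or after the subtraction.

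The inducible list held 8 genes: the stress-inducible Hsp70 genes Hspa1a and Hspa1b, the DnaJ partners Dnajb1 and Dnajb4, the Hsp110 exchange factor Hsph1, the Hsp90 gene Hsp90aa1 and the small heat shock proteins Hspb1 and Hspb8. Relative to 5d-U, 5 of the 8 rose under compression and 1 fell, beside 9.14% and 13.4% of all genes. Their median log2 change was 1.94, beside -1.05 for all genes tested. Relative to 2d-U, 5 rose and none fell, beside 16% and 8.63% of all genes, with a median of 2.89 beside 0. In 2d-U against F, 6 fell and none rose, beside 33.3% and 10.6%. In 5d-U against F, 5 fell and 1 rose, beside 8.9% and 11.6%. Against F the compressed cells had no call in either direction, with a median of -0.22 beside -0.76 for all genes. Most members of the list were thus high in fresh cells, low in uncompressed culture and high again under compression.

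Hspa1a (chr17:34969190-34972156, minus strand) and Hspa1b (chr17:34956436-34959238, minus strand; mm10) lie side by side and encode nearly the same protein. Levels of Hspa1a were 751, 155 and 144 RPKM for F, 0.561, 0.766 and 0.739 for 2d-U, 9.12, 0.647 and 0.346 for 5d-U and 116, 96.7 and 91.3 for 2+3d-C, in the order of replicate numbers. Fresh cells were highest, compressed cells lay between, and both uncompressed groups were near 0 apart from 5d-U 1, with no overlap between F, 2+3d-C and the rest. Levels of Hspa1b were 1311, 299.7 and 294 RPKM for F, 3.97, 3.03 and 3.05 for 2d-U, 16.3, 2.99 and 1.62 for 5d-U and 206, 126 and 169 for 2+3d-C, in the same order. Relative to 5d-U, Hspa1a rose by 4.91 on the log2 scale under compression (SE 1.07, edgeR adjusted p = 0.00462). It was 7.65 without 5d-U 1, the uncompressed library with the most immune marker reads (116 CPM) and 3.81 silent-family reads per kb. When the 4 libraries rich in such reads had a term of their own in the fit, it was 4.32 (edgeR adjusted p = 0.085). Hspa1b rose in the same comparison (log2 fold change 4.58, SE 0.85, edgeR adjusted p = 0.00168). Both also rose relative to 2d-U (7.2 and 5.64) and fell from F to 2d-U (-8.99 and -7.56). Compressed cells did not reach a call against F for either gene (log2 fold change -1.79, SE 0.93, edgeR adjusted p = 0.172; log2 fold change -1.93, SE 0.75, edgeR adjusted p = 0.105), although every F library was above every compressed library.

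Reads cannot be assigned freely between this pair. Of the 75-base windows in their transcripts, 54.2% in Hspa1a and 55.8% in Hspa1b also occur in another gene, mostly the other of the pair, and reads with several hits were not counted, so the levels are understated and each gene's share is uncertain. Hspa1a also shares 19.0% of its exon bases with Gm20481 on the opposite strand, and the counting did not use strand. The list without these copies kept 3 members higher in 2+3d-C against 5d-U and 3 higher against 2d-U. Relative to Hspa8, the constitutive Hsp70, the summed RPKM of Hspa1a and Hspa1b was 0.902 to 1.55 in F, 0.167 to 0.388 in 2+3d-C and 0.00792 to 0.00985 in 2d-U. In 5d-U it was 0.0737, 0.00724 and 0.00594.

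The start-site regions of this pair are shown because the genes moved together and because the letters bound by Hsf1 are known. RefSeq windows of 300 bases (250 before and 50 after the start, GRCm38.p6) were found for 58 of the 72 members. Capitals mark a match to GAANNTTC or TTCNNGAA, the 2 arrangements of a 2-unit element, each of which reads the same on both strands, and which overlaps the longer 3-unit element described below. The windows are chr17:34972107-34972406, minus strand and chr17:34959189-34959488, minus strand.
Hspa1a: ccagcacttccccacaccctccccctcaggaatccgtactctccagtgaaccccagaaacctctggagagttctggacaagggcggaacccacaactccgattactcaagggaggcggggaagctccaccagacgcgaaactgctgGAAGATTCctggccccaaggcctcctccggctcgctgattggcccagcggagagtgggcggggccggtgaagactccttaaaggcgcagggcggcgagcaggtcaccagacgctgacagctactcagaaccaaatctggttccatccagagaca
Hspa1b: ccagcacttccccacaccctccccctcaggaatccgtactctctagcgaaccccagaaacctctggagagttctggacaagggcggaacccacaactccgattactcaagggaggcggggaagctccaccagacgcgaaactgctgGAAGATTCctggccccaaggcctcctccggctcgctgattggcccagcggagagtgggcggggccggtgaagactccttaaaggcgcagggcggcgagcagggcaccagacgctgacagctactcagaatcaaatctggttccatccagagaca
The pair differed at 4 of 300 bases (98.7% identical), and each held 1 match at the same place, 104 to 97 bases before the start. The 2-unit element was found in 15.1% of 32851 windows of the same length, and 16 of the 58 matched members (27.6%) held it in at least 1 window. The windows belong to 27025 gene symbols, and some members have more than 1. Here and below, the share of windows and the share of members are thus in unlike units. Among members that rose relative to 5d-U under compression, 6 of 13 with a window held it, as did 4 of 12 that fell. A match is a description of the letters and not a bound site.

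Dnajb1 (chr8:83608193-83612653, plus strand), the best known DnaJ partner of inducible Hsp70, followed the pair at a smaller scale. Levels of Dnajb1 were 401, 153 and 119.6 RPKM for F, 38.1, 35.8 and 37.2 for 2d-U, 21.2, 39.4 and 42.7 for 5d-U and 188, 293 and 136 for 2+3d-C. Compressed libraries lay within the range of fresh libraries and the lowest of them was 3.19 times the highest uncompressed one. The rise over 5d-U (log2 fold change 2.58, SE 0.51, edgeR adjusted p = 0.00255) and over 2d-U (log2 fold change 2.47, SE 0.51, edgeR adjusted p = 0.00297) was close in size to the fall from F to 2d-U (log2 fold change -2.6, SE 0.51, edgeR adjusted p = 0.00203), with no call between 2+3d-C and F (log2 fold change -0.13, SE 0.48, edgeR adjusted p = 0.881). Dnajb4, a close relative, had 51.9, 11.8 and 15.1 RPKM for F, 3.05, 3.303 and 2.25 for 2d-U, 5.75, 8.44 and 6.81 for 5d-U and 25.8, 34.6 and 24.7 for 2+3d-C. It rose in 2+3d-C against 5d-U (log2 fold change 2.02, SE 0.51, edgeR adjusted p = 0.0118), and with a term for the silent-family libraries the change was 1.15 (edgeR adjusted p = 0.164). No compressed library overlapped an uncompressed one for Dnajb4, and 5d-U lay above 2d-U in every library. The fall of Dnajb4 from F to 5d-U was called with all libraries but not without 5d-U 6 (-1.87, edgeR adjusted p = 0.0524).

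Hsph1, which reloads Hsp70 with ATP, was the third kind of partner in the Hsp70 cycle. Levels of Hsph1 were 259.7, 76.8 and 79.4 RPKM for F, 37.03, 27.6 and 38.02 for 2d-U, 24.1, 38.8 and 16.7 for 5d-U and 125, 55.2 and 109 for 2+3d-C. The compressed libraries were all above the uncompressed ones, and 2+3d-C 5 was the lowest of them. The call in 2+3d-C against 5d-U (log2 fold change 1.86, SE 0.53, edgeR adjusted p = 0.0217) was lost without 5d-U 6 (1.61, edgeR adjusted p = 0.0861), without 2+3d-C 4 (1.61, 0.0728) and without 2+3d-C 10 (1.76, 0.0533), and the change was 1.02 with the term (0.194). It fell from F to 2d-U (log2 fold change -2.02, SE 0.53, edgeR adjusted p = 0.0111), with a fold change of -1.28 without F 1.

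Hsp90aa1, the stress-responsive cytosolic Hsp90, did not share the pattern. Levels of Hsp90aa1 were 365, 47.02 and 94.9 RPKM for F, 174, 129.5 and 121 for 2d-U, 259.5, 239 and 461 for 5d-U and 195, 274 and 244 for 2+3d-C, and no comparison called it. The compressed libraries lay inside the range of the other groups (log2 fold change -0.43, SE 0.58, edgeR adjusted p = 0.579). Its ratio to the constitutive Hsp90ab1 was 0.292, 0.299 and 0.412 in 5d-U, 0.192 to 0.205 in 2+3d-C, 0.138 to 0.172 in 2d-U and 0.0988 to 0.353 in F. The ratio in 5d-U did not overlap that in 2+3d-C. As 42.8% of the windows of Hsp90aa1 occur in other genes, mostly the pseudogene Gm12346, its level is understated.

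Hspb1 and Hspb8, the inducible small heat shock proteins, also departed from the Hsp70 genes. Levels of Hspb1 were 738, 196 and 304 RPKM for F, 58.9, 53.96 and 54.3 for 2d-U, 121, 206 and 548 for 5d-U and 316, 1029 and 396 for 2+3d-C. It was low at day 2 in culture and overlapped between 5d-U and 2+3d-C (log2 fold change 0.99, SE 0.62, edgeR adjusted p = 0.213), while it rose against 2d-U (log2 fold change 3.38, SE 0.67, edgeR adjusted p = 0.00247) and fell from F to 2d-U (log2 fold change -2.89, SE 0.66, edgeR adjusted p = 0.00499). Levels of Hspb8 were 11.2, 22.8 and 21.6 RPKM for F, 10.2, 14.7 and 12.5 for 2d-U, 12.98, 122 and 149 for 5d-U and 8.89, 28.4 and 7.69 for 2+3d-C. Both 5d-U 2 and 5d-U 6 were above every other library, and 5d-U 1 was not. Hspb8 fell in 2+3d-C against 5d-U (log2 fold change -2.66, SE 0.74, edgeR adjusted p = 0.0192), a call that was lost without 5d-U 6 (-2.19, edgeR adjusted p = 0.0714), without 2+3d-C 4 (-2.41, 0.0652) and without 2+3d-C 10 (-2.36, 0.0561). Its rise from F to 5d-U (log2 fold change 2.36, SE 0.73, edgeR adjusted p = 0.0331) was lost without any one of the F libraries, 5d-U 2 or 5d-U 6, and was 1.59 without F 1 (edgeR adjusted p = 0.198). A pseudogene, Hsp25-ps1, shares 46.4% of the windows of Hspb1.

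**Figure D1:**
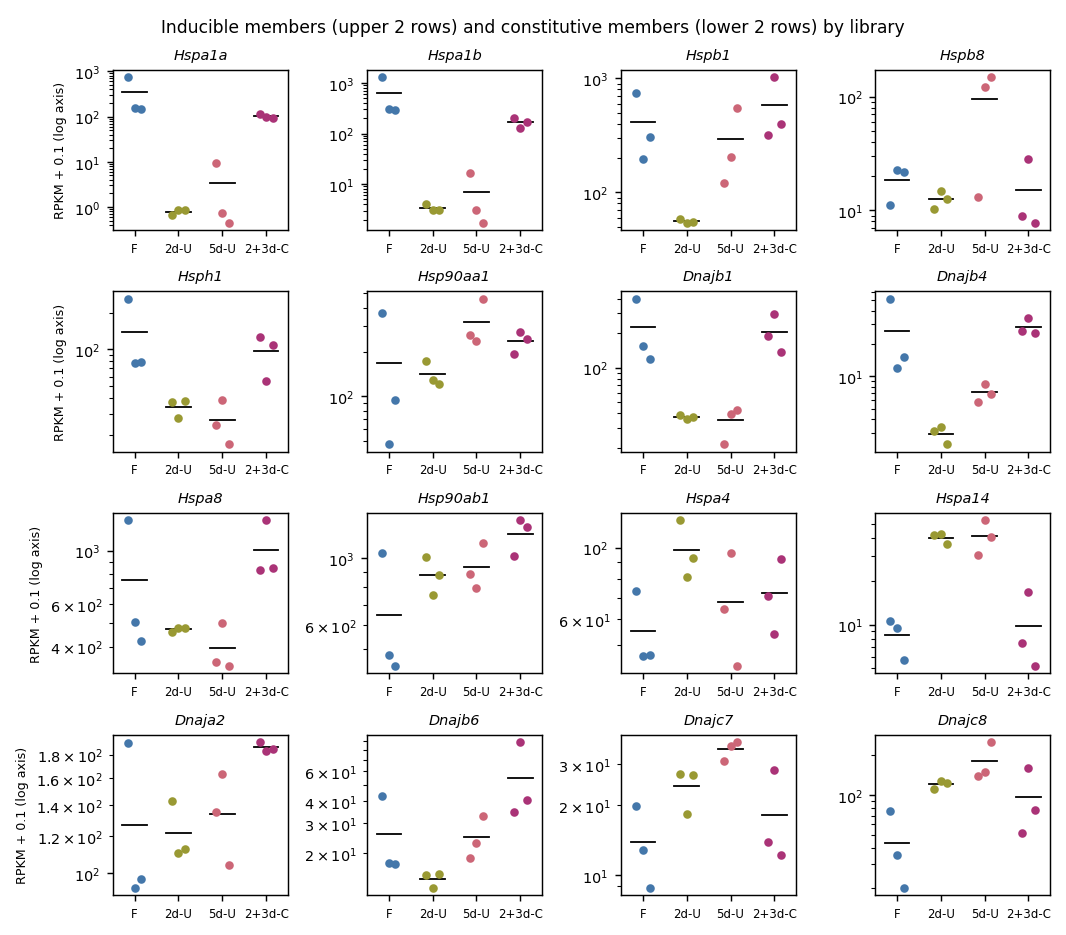
Level of each inducible member (upper 2 rows of panels) and constitutive member (lower 2 rows) in the 12 libraries, as RPKM plus 0.1 on a log axis, with points for libraries and a bar for the mean of each group of 3. Hspa1a, Hspa1b, Dnajb1 and Dnajb4 drop from F to 2d-U and 5d-U and stand high again in 2+3d-C, while Hsp90ab1, Hspa4 and Dnaja2 were called in no comparison.

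The constitutive list held 8 genes of the cytosol and nucleus: Hspa8, Hsp90ab1, Hspa4, Hspa14, Dnaja2, Dnajb6, Dnajc7 and Dnajc8. Under compression 1 rose and 1 fell relative to 5d-U, near the 9.14% and 13.4% of all genes. The median log2 change was 0.23, beside 1.94 for the inducible list and -1.05 for all genes tested. Relative to 2d-U 1 rose and 1 fell as well, beside 16% and 8.63% of all genes, with a median of 0.06 beside 0. In 2d-U against F, 2 were higher, and in 5d-U against F, 3 were higher, beside 10.6% and 11.6% of all genes. None was lower in either, beside 33.3% and 8.9%. There was no call against F in 2+3d-C, nor between 5d-U and 2d-U. The difference between both lists was not itself tested. The genes were sorted into them by name and known behaviour, but with earlier results of these data known, so the lists are not independent of the data. Outside both lists, the heat-inducible Dnaja4 rose relative to 5d-U under compression, while Hspd1 and Hspe1, described below with a heat shock element, fell.

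Hsp90ab1, the most abundant cytosolic Hsp90, had 1036, 476 and 439 RPKM for F, 1007, 755 and 877 for 2d-U, 889, 799 and 1120 for 5d-U and 1016, 1335 and 1264 for 2+3d-C. Compressed libraries lay above 2d-U and overlapped 5d-U, and no comparison called it (log2 fold change 0.37, SE 0.4, edgeR adjusted p = 0.482). Hspa8, which folds new proteins and drives chaperone-mediated autophagy, had 1335, 505 and 421 RPKM for F, 460.2, 479.5 and 475 for 2d-U, 344, 502 and 332 for 5d-U and 829, 1333 and 842 for 2+3d-C. All 3 compressed libraries lay above the 6 uncompressed ones, and so did F 1 and, by a small margin, F 4. The rise over 5d-U (log2 fold change 1.35, SE 0.45, edgeR adjusted p = 0.0454) was near the threshold and was lost without any one of the 5d-U, 2d-U or 2+3d-C libraries, with the lowest value, 1.08, without 2+3d-C 5 (edgeR adjusted p = 0.126). With the term for the silent-family libraries the change of Hspa8 was 0.64 (edgeR adjusted p = 0.368). Of its windows, 32.8% occur in other genes, so its level is understated.

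Hspa14, an Hsp70 that works with Dnajc2 on the ribosome, moved against the list. Levels of Hspa14 were 10.4, 9.31 and 5.58 RPKM for F, 41.99, 42.2 and 35.98 for 2d-U, 30.4, 52.9 and 40.2 for 5d-U and 7.33, 16.6 and 5.06 for 2+3d-C. Both uncompressed groups lay above every fresh and every compressed library. It fell in 2+3d-C against 5d-U (log2 fold change -2.09, SE 0.47, edgeR adjusted p = 0.00601) and against 2d-U (log2 fold change -2.05, SE 0.47, edgeR adjusted p = 0.0063), and rose from F to 2d-U (log2 fold change 2.25, SE 0.48, edgeR adjusted p = 0.00329) and to 5d-U (log2 fold change 2.29, SE 0.48, edgeR adjusted p = 0.00341). With only the 8 libraries that hold few silent-family reads, the change relative to 5d-U was -2.46 on the log2 scale (edgeR adjusted p = 0.0539). Dnajc2 itself had 15.9, 5.14 and 4.76 RPKM for F, 47.1, 41.9 and 39.9 for 2d-U, 48.1, 41.7 and 72.7 for 5d-U and 10.9, 22.5 and 15.8 for 2+3d-C and the same order of groups. It fell in 2+3d-C against 5d-U (log2 fold change -1.73, SE 0.49, edgeR adjusted p = 0.0216), a call lost without 5d-U 6 (-1.46, edgeR adjusted p = 0.0817), without 2+3d-C 4 (-1.52, 0.0884) and without 2+3d-C 10 (-1.71, 0.063). With the replicate block the fold change of Dnajc2 was 0.08 (edgeR adjusted p = 0.976), the opposite sign. It rose from F to 2d-U (log2 fold change 2.32, SE 0.5, edgeR adjusted p = 0.00378).

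Hspa4, a second Hsp110 exchange factor, had 73.1, 45.9 and 46.3 RPKM for F, 122, 81.3 and 92.5 for 2d-U, 64.3, 96.4 and 42.8 for 5d-U and 70.8, 54.1 and 92.04 for 2+3d-C. Dnaja2, a general DnaJ protein, had 191, 92.7 and 96.9 RPKM for F, 143, 110.2 and 113 for 2d-U, 135, 163 and 104 for 5d-U and 192, 183 and 185 for 2+3d-C. Neither was called in any comparison, although every compressed library was above every uncompressed one for Dnaja2. Outside the list, Dnaja1, another general DnaJ protein, had 118, 47.9 and 26.5 RPKM for F, 39.1, 42.04 and 43.98 for 2d-U, 43.99, 55.95 and 69.4 for 5d-U and 44.5, 123 and 35.4 for 2+3d-C and no call in any comparison (log2 fold change 0.26, SE 0.55, edgeR adjusted p = 0.726 in 2+3d-C against 5d-U). Hspa4l, the Hsp110 protein closest to Hspa4, was not called either, at 5.37, 3.39 and 2.45 RPKM for F, 3.29, 1.77 and 3.02 for 2d-U, 2.6, 7.59 and 7.18 for 5d-U and 4.44, 1.803 and 1.201 for 2+3d-C. Dnajb6, which keeps proteins from aggregating, had 42.7, 17.5 and 17.3 RPKM for F, 14.8, 12.6 and 15.02 for 2d-U, 18.8, 22.9 and 32.7 for 5d-U and 34.6, 88.5 and 40.6 for 2+3d-C. It rose relative to 2d-U (log2 fold change 1.95, SE 0.48, edgeR adjusted p = 0.0095) but was not called against 5d-U (log2 fold change 1.14, SE 0.47, edgeR adjusted p = 0.0883). Dnajc7, which passes clients between Hsp70 and Hsp90, had 19.7, 12.7 and 8.74 RPKM for F, 26.95, 18.2 and 26.6 for 2d-U, 30.9, 35.7 and 37.1 for 5d-U and 13.8, 27.97 and 12.1 for 2+3d-C. It was called only from F to 5d-U (log2 fold change 1.33, SE 0.43, edgeR adjusted p = 0.0404), and leaving out any of the 9 libraries of F, 2d-U and 5d-U ended that call, the value being 1.10 without F 5 (edgeR adjusted p = 0.175). Dnajc8, a DnaJ protein of the splicing machinery, had 76.1, 35.2 and 19.9 RPKM for F, 111, 128 and 124 for 2d-U, 140, 149 and 251 for 5d-U and 51.9, 159 and 76.4 for 2+3d-C. It rose from F to 2d-U (log2 fold change 1.47, SE 0.52, edgeR adjusted p = 0.0382) and to 5d-U (log2 fold change 2.04, SE 0.53, edgeR adjusted p = 0.013), where leaving out F 4 or F 5 ended both calls, with 1.13 and 1.70 without F 5 (edgeR adjusted p = 0.126 and 0.0614). Leaving out any 2d-U library ended the first of them as well (0.0719 to 0.0835).

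**Figure D2:**
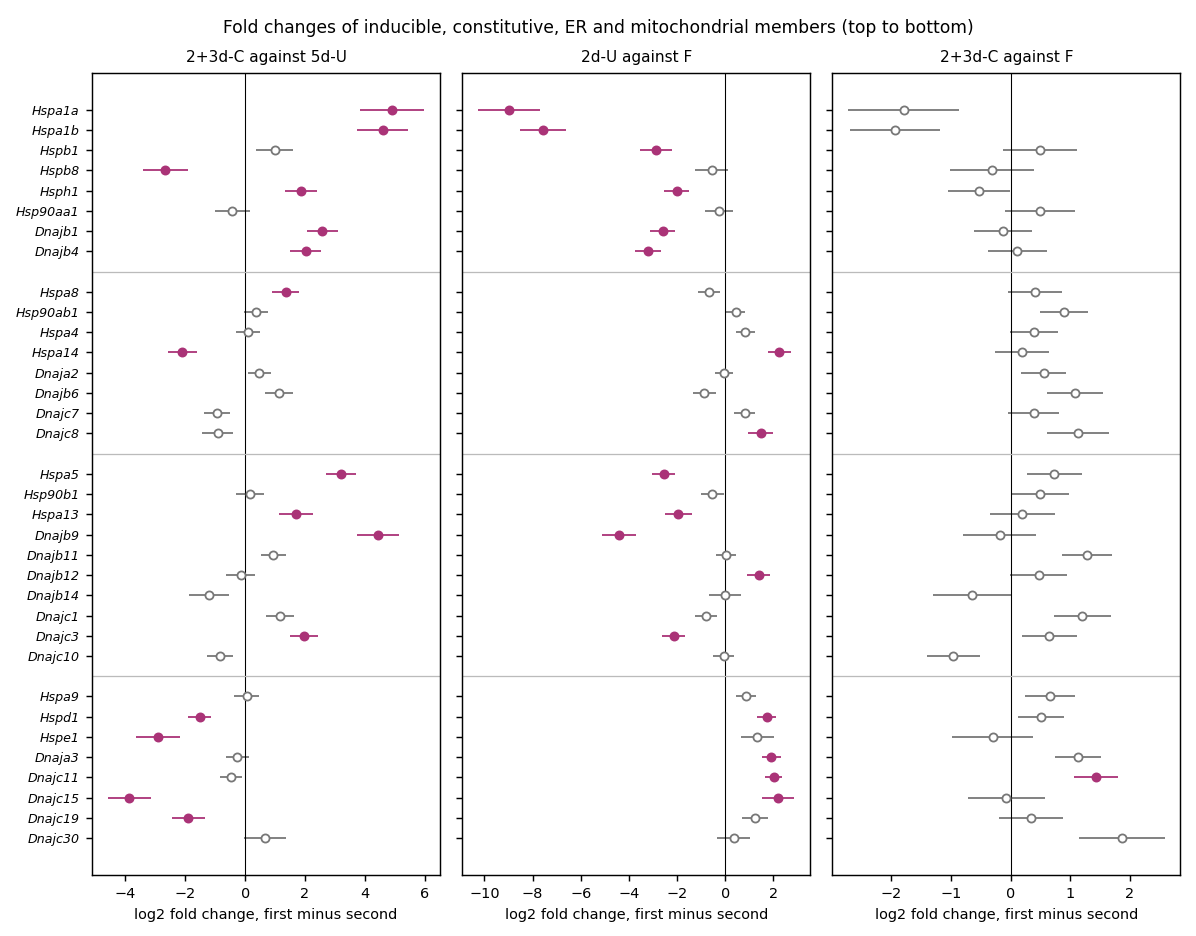
Log2 fold change with its standard error for the inducible, constitutive, ER and mitochondrial members in 2+3d-C against 5d-U, 2d-U against F and 2+3d-C against F, from the edgeR fit of 12 libraries, with filled points where the adjusted p was under 0.05. Filled inducible and ER points lie mostly right of 0 in the first panel and left of 0 in the second, and 1 point, Dnajc11, is filled in the third.

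The ER list held 10 genes, led by the lumenal Hsp70 Hspa5 (BiP). Of the 10, 4 rose and none fell in 2+3d-C relative to 5d-U, with a median log2 change of 1.05, and 6 rose and none fell relative to 2d-U. Of all genes tested, 9.14% and 16% rose in these comparisons. In 2d-U against F, 4 were lower and 1 higher, which is near the 33.3% and 10.6% of all genes, and in 5d-U against F, 2 were lower, beside 8.9% of all genes. The summed level of the 10 was 18310 to 23740 CPM in 2+3d-C, 2479 to 4407 CPM in 5d-U and 2693 to 3126 CPM in 2d-U, and in F it was 22870, 8028 and 6809 CPM.

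Hspa5 (chr2:34771970-34777547, plus strand) binds unfolded proteins in the ER lumen and holds its stress sensors inactive. Levels of Hspa5 were 4479, 1572 and 1279 RPKM for F, 437, 387 and 419 for 2d-U, 344, 586 and 386 for 5d-U and 3723, 4788 and 3651 for 2+3d-C. The lowest compressed library was 6.23 times the highest uncompressed one, and F 1 lay among the compressed libraries. Hspa5 rose relative to 5d-U (log2 fold change 3.21, SE 0.5, edgeR adjusted p = 0.000529) and relative to 2d-U (log2 fold change 3.29, SE 0.5, edgeR adjusted p = 0.00039), and Hspa5 fell from F to 2d-U (log2 fold change -2.56, SE 0.49, edgeR adjusted p = 0.00175). The call against 5d-U held in 20 of 20 alternative settings. None of its 75-base windows occurs in another gene.

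Dnajb9 (chr12:44205559-44210326, minus strand), a DnaJ partner of Hspa5 that delivers misfolded proteins for degradation, had 316, 60.5 and 57.01 RPKM for F, 5.48, 7.73 and 7.05 for 2d-U, 2.73, 5.38 and 9.46 for 5d-U and 141, 142 and 99.7 for 2+3d-C. The lowest compressed library was 10.5 times the highest uncompressed one. It rose against 5d-U (log2 fold change 4.44, SE 0.7, edgeR adjusted p = 0.000568) and fell from F to 2d-U (log2 fold change -4.42, SE 0.7, edgeR adjusted p = 0.000535). Dnajc3, another lumenal partner and an inhibitor of the kinase Perk, had 156, 63.4 and 67.8 RPKM for F, 21.4, 21.04 and 22.8 for 2d-U, 19.7, 32.9 and 63.5 for 5d-U and 143, 146 and 161 for 2+3d-C. All compressed libraries exceeded all uncompressed ones, with 5d-U 6 the nearest. Dnajc3 rose against 5d-U (log2 fold change 1.95, SE 0.47, edgeR adjusted p = 0.00907) and 2d-U (log2 fold change 2.79, SE 0.49, edgeR adjusted p = 0.00103), although with a term for the silent-family libraries the first was 1.56 (edgeR adjusted p = 0.109). Hspa13, a small Hsp70 relative of the secretory pathway, had 29.9, 8.25 and 12.5 RPKM for F, 6.56, 2.39 and 4.15 for 2d-U, 4.601, 8.16 and 5.14 for 5d-U and 30.95, 11.9 and 15.2 for 2+3d-C. Its rise over 5d-U (log2 fold change 1.7, SE 0.56, edgeR adjusted p = 0.0428) was lost without F 5, 2d-U 3, any 5d-U library, 2+3d-C 4 or 2+3d-C 10, and was 1.17 without 2+3d-C 4 (edgeR adjusted p = 0.191) and 0.96 with the term (0.316) and 1.53 without 5d-U 1 (0.117).

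The remaining ER members were not called against 5d-U. Hsp90b1 (Grp94), the Hsp90 of the ER, had 405, 132 and 136 RPKM for F, 177, 140.1 and 145 for 2d-U, 148, 296 and 400 for 5d-U and 313, 366 and 264 for 2+3d-C. Its compressed libraries overlapped 5d-U (log2 fold change 0.16, SE 0.48, edgeR adjusted p = 0.81), and no comparison called it. Dnajb11, a cofactor of Hspa5, had 78.9, 50.6 and 41.1 RPKM for F, 65.5, 55.7 and 54.7 for 2d-U, 43.0, 86.2 and 87.2 for 5d-U and 85.3, 186 and 143 for 2+3d-C and was called only against 2d-U (log2 fold change 1.24, SE 0.42, edgeR adjusted p = 0.0457), which leaving out F 4, F 5, any 2d-U library, 5d-U 2, 5d-U 6, 2+3d-C 5 or 2+3d-C 10 ended (0.96 without 2+3d-C 5, edgeR adjusted p = 0.143). Dnajc1, an ER membrane DnaJ that docks on ribosomes, had 6.12, 3.19 and 2.68 RPKM for F, 2.95, 1.97 and 1.93 for 2d-U, 4.34, 2.74 and 5.27 for 5d-U and 7.103, 14.03 and 6.39 for 2+3d-C and rose against 2d-U (log2 fold change 2.01, SE 0.48, edgeR adjusted p = 0.00828). Dnajc10, which reduces disulfide bonds, had 27.1, 16.8 and 16.3 RPKM for F, 21.8, 16.5 and 19.4 for 2d-U, 14.02, 29.4 and 11.95 for 5d-U and 14.2, 6.78 and 9.88 for 2+3d-C and no call in any comparison. Dnajb12 and Dnajb14, ER membrane proteins of the degradation pathway, ranged from 3.01 to 13.3 and from 0.107 to 1.90 RPKM over the 12 libraries.

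The start-site windows of Hspa5, Hsp90b1 and Dnajc3 are shown because these 3 were the matched members with the ER stress response element, read as CCAAT and CCACG with 9 bases between them, or CGTGG and ATTGG with 9 bases between them on the other strand. Capitals mark the matches. The windows (GRCm38.p6, RefSeq) are chr2:34771840-34772139, plus strand; chr10:86705395-86705694, minus strand; and chr14:118937682-118937981, plus strand.
Hspa5: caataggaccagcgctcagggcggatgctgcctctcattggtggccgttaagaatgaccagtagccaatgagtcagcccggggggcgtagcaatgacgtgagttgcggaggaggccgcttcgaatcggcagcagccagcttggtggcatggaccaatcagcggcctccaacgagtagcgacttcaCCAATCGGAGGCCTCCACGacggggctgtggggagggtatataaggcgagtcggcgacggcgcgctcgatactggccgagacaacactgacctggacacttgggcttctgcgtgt
Hsp90b1: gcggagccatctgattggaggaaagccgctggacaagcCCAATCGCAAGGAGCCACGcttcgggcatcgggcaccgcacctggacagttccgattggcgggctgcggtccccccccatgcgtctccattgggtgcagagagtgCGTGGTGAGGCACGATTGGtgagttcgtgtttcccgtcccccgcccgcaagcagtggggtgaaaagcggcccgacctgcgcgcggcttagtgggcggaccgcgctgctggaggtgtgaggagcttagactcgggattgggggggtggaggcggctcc
Dnajc3: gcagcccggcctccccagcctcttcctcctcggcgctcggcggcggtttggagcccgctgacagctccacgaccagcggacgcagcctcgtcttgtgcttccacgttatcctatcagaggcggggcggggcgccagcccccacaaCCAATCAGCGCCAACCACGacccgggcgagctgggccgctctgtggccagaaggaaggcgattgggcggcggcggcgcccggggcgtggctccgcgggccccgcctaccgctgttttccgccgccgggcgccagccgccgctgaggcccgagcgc
The element was found in 39 of 32851 windows (0.119%) and in 3 of 58 matched members (5.17%). Hspa5 and Dnajc3 held 1 match each and Hsp90b1 held 2, so the letters were present both in genes that rose under compression and in one that did not pass the test.

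The wider unfolded protein response moved in part with these members. Of 13 listed genes, 6 rose and none fell in 2+3d-C relative to 5d-U, beside 9.14% and 13.4% of all genes. Their median log2 change was 0.49, beside -1.05 for all genes tested. Xbp1, a transcription factor of the ER stress response, had 365, 207 and 177 RPKM for F, 43.2, 43.8 and 40.5 for 2d-U, 35.1, 75.4 and 79.1 for 5d-U and 491, 815 and 415 for 2+3d-C (log2 fold change 3.18, SE 0.46, edgeR adjusted p = 0.000323). Herpud1, an ER membrane protein of the degradation pathway, had 433, 251 and 172 RPKM for F, 40.4, 45.8 and 50.2 for 2d-U, 24.1, 63.3 and 42.1 for 5d-U and 397, 693 and 388 for 2+3d-C (log2 fold change 3.51, SE 0.49, edgeR adjusted p = 0.000249). The lowest compressed library was 5.24 times the highest uncompressed one for Xbp1 and 6.13 times for Herpud1. Atf6, a membrane-bound sensor, rose as well (log2 fold change 2.84, SE 0.57, edgeR adjusted p = 0.00269), as did the lectin chaperone Calr (log2 fold change 1.54, SE 0.37, edgeR adjusted p = 0.00861), whereas Pdia6, a disulfide isomerase, was not called (log2 fold change 0.34, SE 0.44, edgeR adjusted p = 0.561).

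**Figure D3:**
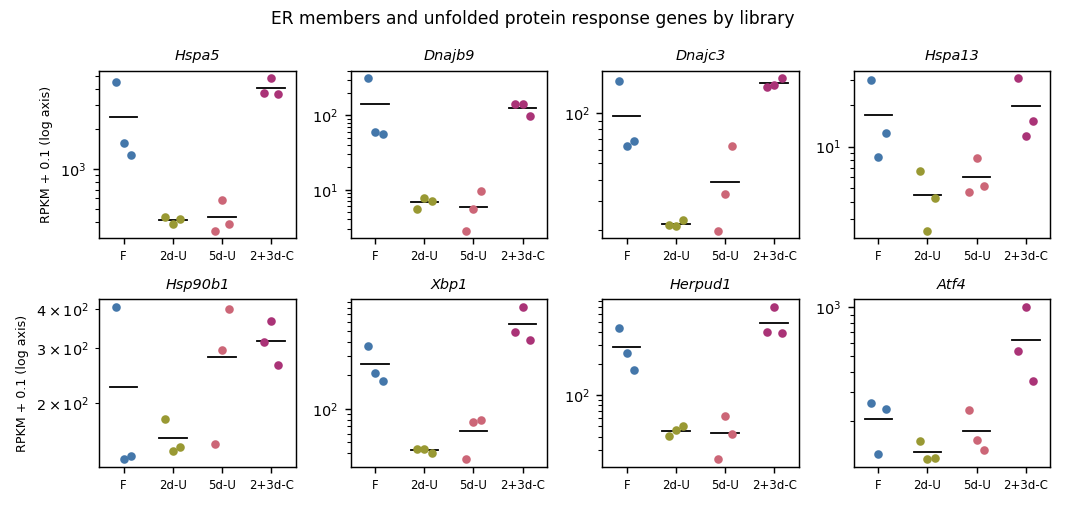
Level of 5 ER members and of Xbp1, Herpud1 and Atf4 in the 12 libraries, as RPKM plus 0.1 on a log axis, with points for libraries and a bar for the mean of each group of 3. Hspa5, Dnajb9, Xbp1 and Herpud1 in 2+3d-C lie above every 2d-U and 5d-U library, and Hsp90b1 overlaps between 5d-U and 2+3d-C.

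Of the 8 members that work in mitochondria, 4 fell in 2+3d-C relative to 5d-U, none rose and 4 were not called. Their median was -1.0 on the log2 scale beside -1.05 for all genes tested, of which 13.4% were lower. In 5d-U against F, 6 were higher and none lower, beside 11.6% of all genes higher, and in 2d-U against F, 4 were higher, beside 10.6%. Their summed level was 3102 to 4049 CPM in 5d-U and 1825 to 1927 CPM in 2+3d-C, with no overlap.

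Hspd1 (chr1:55077835-55088243, minus strand) and Hspe1 (chr1:55088132-55091307, plus strand) encode Hsp60 and Hsp10, the barrel and the lid of the chaperonin that folds proteins in the mitochondrial matrix. Levels of Hspd1 were 211, 96.4 and 86.1 RPKM for F, 486, 383 and 437 for 2d-U, 497, 537 and 575 for 5d-U and 172, 207 and 184 for 2+3d-C. Every uncompressed library was above every fresh and compressed one. It fell in 2+3d-C against 5d-U (log2 fold change -1.52, SE 0.39, edgeR adjusted p = 0.0129), a call lost without 2+3d-C 4 (-1.47, edgeR adjusted p = 0.0544) and without 2+3d-C 10 (-1.51, 0.0556). Against 2d-U (log2 fold change -1.22, SE 0.39, edgeR adjusted p = 0.0343) the call was lost without any one of the 2d-U or 2+3d-C libraries. Hspd1 rose from F to 2d-U (log2 fold change 1.73, SE 0.39, edgeR adjusted p = 0.00498) and to 5d-U (log2 fold change 2.03, SE 0.4, edgeR adjusted p = 0.0023).

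Levels of Hspe1 were 181, 30.7 and 28.2 RPKM for F, 187, 231 and 187 for 2d-U, 256, 333 and 868 for 5d-U and 36.1, 104 and 54.6 for 2+3d-C. Here F 1 lay just under the 2d-U libraries and 5d-U 6 stood apart above all others. Hspe1 fell in 2+3d-C against 5d-U (log2 fold change -2.91, SE 0.73, edgeR adjusted p = 0.0107) and was 0.53 with the replicate block (edgeR adjusted p = 0.792), the opposite sign. Its rise from F to 5d-U (log2 fold change 2.6, SE 0.72, edgeR adjusted p = 0.0175) was lost without F 4, F 5 or 5d-U 6 (1.89 without the last, edgeR adjusted p = 0.0852). Of the windows of Hspd1, 29.6% occur in other genes, mostly the pseudogene Hspd1-ps3, and of those of Hspe1 11.9%. Both genes also overlap by 4.24% and 7.6% of their exon bases on opposite strands.

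The region between these head-to-head genes is shown because it serves as the start of both and held the longer heat shock element, read as GAANNTTC with GAA 2 bases further on, or TTCNNGAA with TTC 2 bases further on. Capitals mark overlapping matches in the window of Hspd1 (chr1:55087883-55088182, minus strand, GRCm38.p6, RefSeq), and the same bases lie 89 to 72 bases before the start of Hspe1.
Hspd1: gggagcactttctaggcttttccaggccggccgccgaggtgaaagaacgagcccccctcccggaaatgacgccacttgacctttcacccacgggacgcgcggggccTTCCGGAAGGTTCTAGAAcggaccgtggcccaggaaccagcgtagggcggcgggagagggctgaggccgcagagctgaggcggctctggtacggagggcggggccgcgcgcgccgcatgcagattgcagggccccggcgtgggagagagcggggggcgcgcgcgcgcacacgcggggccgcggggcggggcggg
For comparison, Hsph1, which rose in 2+3d-C, held this element 15 to 27 bases after its start (chr5:149636266-149636565, minus strand), and Dnajb6 held it 46 to 34 bases before its start (chr5:29735648-29735947, plus strand).
Hsph1: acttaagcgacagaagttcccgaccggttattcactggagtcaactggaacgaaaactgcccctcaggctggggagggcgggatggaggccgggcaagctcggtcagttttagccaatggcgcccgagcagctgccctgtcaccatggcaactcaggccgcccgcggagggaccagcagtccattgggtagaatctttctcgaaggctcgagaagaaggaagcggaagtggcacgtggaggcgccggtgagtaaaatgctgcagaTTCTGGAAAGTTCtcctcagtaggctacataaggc
Dnajb6: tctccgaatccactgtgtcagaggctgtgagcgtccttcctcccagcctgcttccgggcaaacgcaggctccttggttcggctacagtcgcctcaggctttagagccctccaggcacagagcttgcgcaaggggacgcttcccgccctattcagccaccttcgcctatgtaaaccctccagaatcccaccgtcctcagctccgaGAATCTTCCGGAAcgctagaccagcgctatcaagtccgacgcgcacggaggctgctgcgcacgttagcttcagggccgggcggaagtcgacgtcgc
The 3-unit element was in 198 of 32851 windows (0.603%) and in 4 of 58 matched members (6.9%): Dnajb6, Hspd1, Hspe1 and Hsph1. Of the 4, Hsph1 rose and Hspd1 and Hspe1 fell in 2+3d-C against 5d-U, and Dnajb6 was not called. The windows of Hspa1a and Hspa1b, shown earlier, held no 3-unit element.

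Dnajc15 and Dnajc19 belong to the motor that pulls proteins into the mitochondrial matrix. Levels of Dnajc15 were 3.07, 2.12 and 1.16 RPKM for F, 8.98, 11.8 and 8.45 for 2d-U, 10.9, 16.9 and 59.8 for 5d-U and 0.829, 3.69 and 1.57 for 2+3d-C. Those of Dnajc19 were 4.53, 3.495 and 2.38 RPKM for F, 6.87, 9.72 and 7.85 for 2d-U, 9.15, 11.9 and 28.1 for 5d-U and 2.08, 6.21 and 4.94 for 2+3d-C. For both genes every uncompressed library was above every other, and 5d-U 6 was the highest. Dnajc15 fell in 2+3d-C against 5d-U (log2 fold change -3.86, SE 0.72, edgeR adjusted p = 0.00183), and was at -3.07 in the 8 libraries with few silent-family reads (edgeR adjusted p = 0.0512). Dnajc19 fell too (log2 fold change -1.9, SE 0.56, edgeR adjusted p = 0.0246), a call lost without F 1 (-1.56, edgeR adjusted p = 0.0504), 5d-U 6 (-1.27, 0.164) or 2+3d-C 4 (-1.57, 0.0913). Hspa9 (mortalin), the matrix Hsp70, had 219, 106 and 122 RPKM for F, 314, 237 and 265 for 2d-U, 238, 322 and 122 for 5d-U and 269, 188 and 249.5 for 2+3d-C and no call in any comparison (log2 fold change 0.05, SE 0.42, edgeR adjusted p = 0.932).

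Dnaja3, a partner of Hspa9, had 13.1, 10.2 and 9.86 RPKM for F, 45.6, 36.7 and 41.8 for 2d-U, 22.7, 43.02 and 20.99 for 5d-U and 25.5, 26.8 and 20.02 for 2+3d-C, rose from F to 2d-U (log2 fold change 1.9, SE 0.39, edgeR adjusted p = 0.00265) and was not called between 2+3d-C and 5d-U. Dnajc11, a protein of the cristae junction complex, was the 1 member called in 2+3d-C against F. Levels of Dnajc11 were 3.57, 4.77 and 5.33 RPKM for F, 20.1, 16.2 and 18.5 for 2d-U, 16.6, 23.2 and 11.7 for 5d-U and 13.04, 12.2 and 11.7 for 2+3d-C. All 9 cultured libraries were above the 3 fresh ones. The call (log2 fold change 1.43, SE 0.37, edgeR adjusted p = 0.0352) was lost without any one of F 4, F 5, the 2d-U or the 2+3d-C libraries, with the largest adjusted p, 0.123, without F 4 (1.47). It rose from F to 2d-U (log2 fold change 2.00, SE 0.37, edgeR adjusted p = 0.00145) and to 5d-U (log2 fold change 1.91, SE 0.37, edgeR adjusted p = 0.00214).

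**Figure D4:**
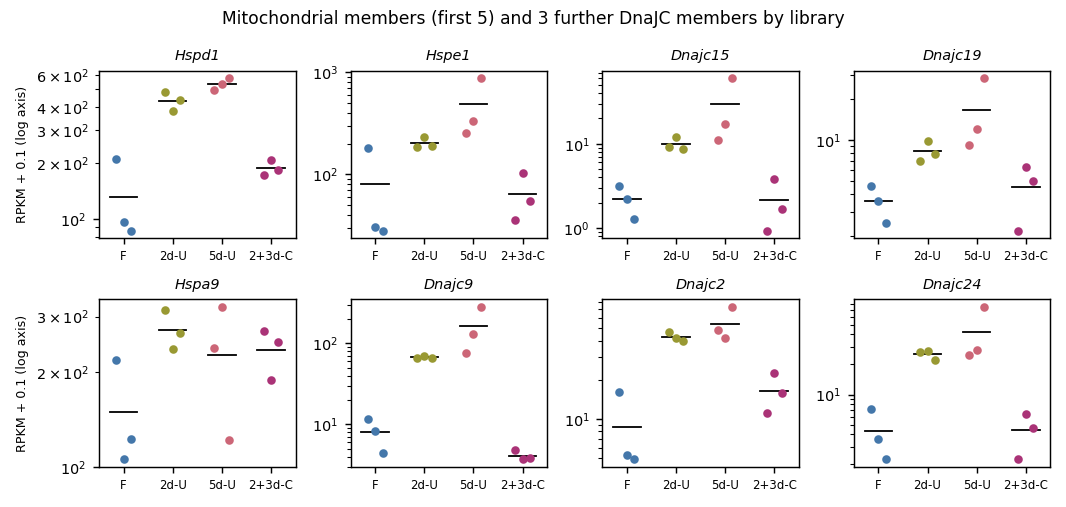
Level of 5 mitochondrial members and of Dnajc9, Dnajc2 and Dnajc24 in the 12 libraries, as RPKM plus 0.1 on a log axis, with points for libraries and a bar for the mean of each group of 3. All but Hspa9 stand higher in 5d-U than in 2+3d-C, and 5d-U 6 is the highest library for Hspe1, Dnajc15, Dnajc19, Dnajc9, Dnajc2 and Dnajc24.

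Among the small heat shock proteins of muscle, Hspb2 and Hspb3 form a complex in striated muscle, Hspb6 (Hsp20) binds contractile proteins and Hspb7 is a filamin partner of heart and muscle. Levels of Hspb2 were 1.696, 6.74 and 2.18 RPKM for F, 0.884, 2.07 and 1.38 for 2d-U, 3.23, 15.1 and 50.97 for 5d-U and 1.19, 4.06 and 2.52 for 2+3d-C. Those of Hspb3 were 0.533, 5.47 and 0.648 RPKM for F, 0 for all 3 of 2d-U, 0.111, 13.8 and 40.5 for 5d-U and 0.8404, 0 and 2.81 for 2+3d-C. For Hspb6 they were 1.52, 27.1 and 18.5 RPKM for F, 4.36, 4.91 and 3.98 for 2d-U, 7.55, 11.7 and 49.9 for 5d-U and 1.85, 3.68 and 3.46 for 2+3d-C. In 5d-U 2 and 5d-U 6 all 3 genes were higher than in any compressed library, and in 5d-U 1 Hspb2 and Hspb3 were not. Summed myofiber markers (7 genes, Acta1 and Tnnt3 among them) followed the same libraries, at 179, 2075 and 3614 CPM in 5d-U 1, 2 and 6, 119 to 224 CPM in 2+3d-C, 97.2 to 160 CPM in 2d-U, and 91.9, 2787 and 1695 CPM in F 1, 4 and 5. The smooth muscle and pericyte sum was likewise low in 5d-U 1 and high in 5d-U 2 and 6, through Acta2 (20.6, 289 and 326 RPKM). Within 5d-U, Myh11, Kcnj8 and Cspg4 went the other way, highest in 5d-U 1 at 0.269, 0.427 and 0.733 RPKM. Rgs5 was highest in 5d-U 6, at 1.33 RPKM. The part of either set of markers in the levels of the small heat shock proteins was not tested.

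Hspb2 fell in 2+3d-C against 5d-U (log2 fold change -3.17, SE 1.03, edgeR adjusted p = 0.0388) and the call was lost without F 1, F 5, 5d-U 2, 5d-U 6, 2+3d-C 4 or 2+3d-C 10, the fold change being -1.84 without 5d-U 6 (edgeR adjusted p = 0.264). It shares 30.2% of its exon bases with Cryab on the opposite strand. Hspb6 fell in the same comparison (log2 fold change -2.95, SE 0.89, edgeR adjusted p = 0.0286), with a fold change of -1.70 without 5d-U 6 (edgeR adjusted p = 0.179) and a lost call without 2+3d-C 4 (-2.71, 0.0873) or with the term (-1.34, 0.266). Hspb3 had no read in any 2d-U library and 2, 309 and 646 reads in 5d-U. It was the 1 member called in 5d-U against 2d-U (edgeR adjusted p = 0.0438). With 2d-U set to a floor of 3 reads per library, the mean of 5d-U was at least 176-fold higher, through 5d-U 2 and 5d-U 6 and not 5d-U 1. That call was lost without F 1, F 5, any 2d-U library or 5d-U 6 (edgeR adjusted p = 0.0876 without the last). The compressed libraries held 35, 0 and 48 reads, and against 2d-U at the same floor their mean was at least 11.8-fold higher (edgeR adjusted p = 0.0309). This second call was lost without 2+3d-C 10 (edgeR adjusted p = 0.0518) or any one of the 2d-U libraries.

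Hspb7 had 9, 576 and 456 reads in F and 3, 0 and 0 in 2d-U, so that F was 453-fold higher by the ratio of summed reads scaled by library size (95% exact interval 155 to 2200, counting error only; edgeR adjusted p = 0.00734). That ratio pools the libraries of a group and rests on F 4 and F 5. Over the 20 alternative settings the log2 fold change in 2d-U against F ran from -11.2 to -3.09, and the call was lost in 3 of them. Both high libraries, F 4 and F 5, were also those with the highest myofiber sums in that group and with the most reads on silent families. Hspb9 was not tested.

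**Figure D5:**
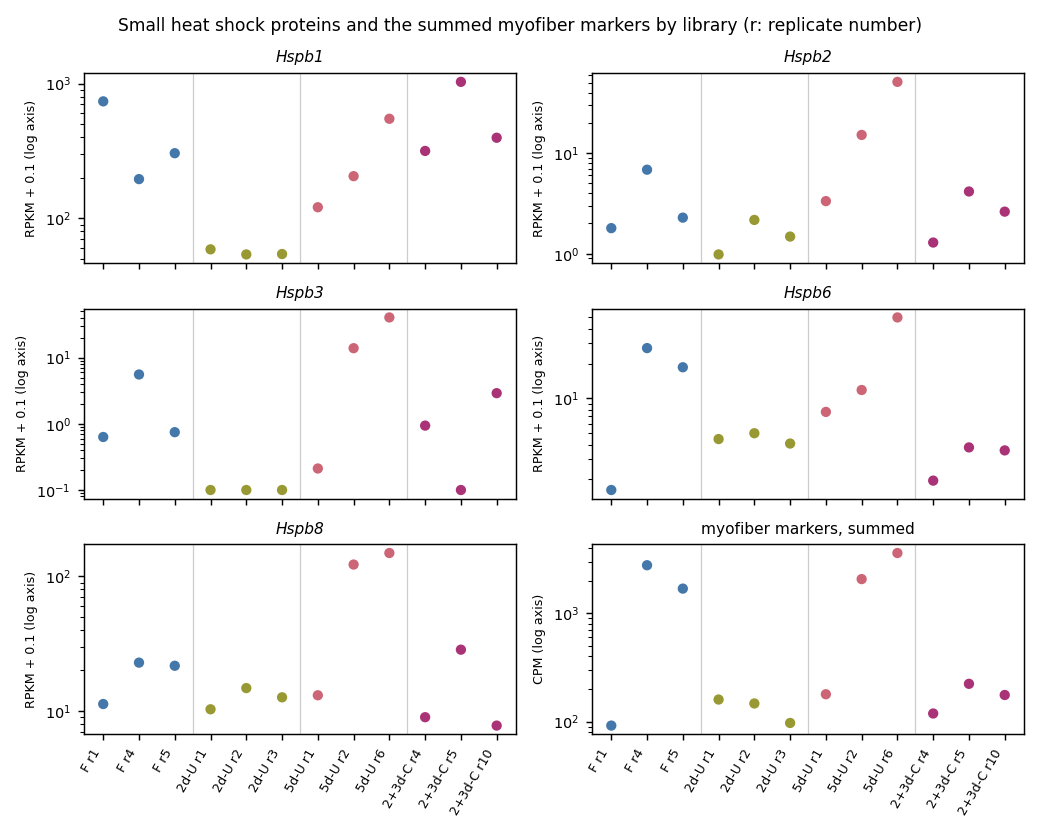
Level of Hspb1, Hspb2, Hspb3, Hspb6 and Hspb8 as RPKM plus 0.1, and the summed myofiber markers in CPM, in the 12 libraries on log axes, with points for libraries and vertical lines between the groups. In 5d-U replicates 2 and 6 stand above replicate 1 for every panel, and the F libraries split in the same way for the myofiber sum, with replicate 1 low.

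Among the genes of neither the inducible nor the constitutive list, Dnajc9 (chr14:20384638-20388910, minus strand), a chaperone partner that handles histones H3 and H4, had the smallest adjusted p of the falls under compression. Levels of Dnajc9 were 11.4, 8.097 and 4.35 RPKM for F, 65.8, 70.4 and 66.4 for 2d-U, 76.8, 129 and 279 for 5d-U and 4.81, 3.61 and 3.71 for 2+3d-C. The lowest uncompressed library was 5.76 times the highest fresh or compressed one. It fell in 2+3d-C against 5d-U (log2 fold change -5.32, SE 0.57, edgeR adjusted p = 3.16e-05) and 2d-U (log2 fold change -4.06, SE 0.54, edgeR adjusted p = 0.000125) and rose from F to 2d-U (log2 fold change 3.09, SE 0.51, edgeR adjusted p = 0.000732). The call against 5d-U held in 20 of 20 alternative settings. Proliferation genes moved with it, since 5 of 6 fell in 2+3d-C relative to 5d-U, beside 13.4% of all genes. Their summed level was 115 to 288 CPM against 1342 to 2371 CPM.

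Dnajc24, needed to modify elongation factor eEF2 with diphthamide, had 7.08, 3.47 and 2.14 RPKM for F, 26.5, 27.1 and 22.3 for 2d-U, 24.7, 27.8 and 74.7 for 5d-U and 2.19, 6.35 and 4.51 for 2+3d-C. Its uncompressed libraries were all above its fresh and compressed ones. It fell in 2+3d-C against 5d-U (log2 fold change -3.29, SE 0.65, edgeR adjusted p = 0.00258) and rose from F to 2d-U (log2 fold change 2.58, SE 0.63, edgeR adjusted p = 0.00737). The fall of Dnajc24 was -2.68 in the 8 libraries with few silent-family reads (edgeR adjusted p = 0.0668). Dnajc17, a DnaJ protein of the nucleus, had 2.799, 1.77 and 2.23 RPKM for F, 7.99, 12.1 and 7.81 for 2d-U, 11.2, 15.6 and 44.5 for 5d-U and 5.16, 5.54 and 9.503 for 2+3d-C and rose from F to 5d-U (log2 fold change 3.39, SE 0.68, edgeR adjusted p = 0.00258), with no call under compression. Dnajc12, a cofactor for the aromatic amino acid hydroxylases, had 1.23, 1.03 and 0.9101 RPKM for F, 0.815, 0.884 and 1.11 for 2d-U, 1.88, 3.69 and 13.4 for 5d-U and 0.524, 0.05397 and 0 for 2+3d-C. It fell in 2+3d-C against 5d-U (log2 fold change -4.95, SE 1.28, edgeR adjusted p = 0.0131), the call being lost without 5d-U 6 (-3.79, edgeR adjusted p = 0.0827), and the fold change was -8.33 without 2+3d-C 4 and -4.2 in those 8 libraries (edgeR adjusted p = 0.248). Hspb11, a small intraflagellar transport protein, fell from 4.22 to 12.5 RPKM in 5d-U to 0.652 to 1.58 RPKM in 2+3d-C (log2 fold change -2.65, SE 0.79, edgeR adjusted p = 0.0265), a call lost without 5d-U 2, 5d-U 6, 2+3d-C 4 or 2+3d-C 10 (-2.05 without 5d-U 6, edgeR adjusted p = 0.165). Dnajc14 was last by size, at -1.48 (edgeR adjusted p = 0.0461), and lost its call without any library except 5d-U 1 (-0.80 without 5d-U 2, 0.244).

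Counts too low for a steady fold were also called. Dnajc28 had 25, 55 and 48 reads in 5d-U, 1, 0 and 0 in 2+3d-C, none in 2d-U and 0, 65 and 44 in F. The 5d-U reads, scaled by library size, were 148 times those of 2+3d-C (95% exact interval 26.1 to 5900, counting error only; edgeR adjusted p = 0.0339), and leaving out F 4, F 5, 5d-U 2, 5d-U 6 or any 2+3d-C library ended the call (0.0941 without 2+3d-C 4), as did the term (0.0681). Against the mean of F, and with a floor of 3 reads per library in 2d-U, Dnajc28 was at least 13.3-fold lower in 2d-U. Dnajc6 (auxilin, which uncoats clathrin vesicles) was at least 22.2-fold and Hspb3 at least 21.6-fold lower in the same way. These folds hold for the mean and not for each library. The reads of Dnajc6 and Dnajc28 in F came mostly from F 4 and F 5, the libraries with the most reads on silent families. Hspb3 had 10, 133 and 20 reads in F 1, F 4 and F 5.

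Several members rose under compression with Hspa1a and Hspa5. Dnaja4, a DnaJ protein known to be heat-inducible, had 64.5, 28.3 and 25.7 RPKM for F, 2.83, 3.198 and 5.09 for 2d-U, 2.17, 4.17 and 3.58 for 5d-U and 29.4, 43.1 and 37.7 for 2+3d-C. Compressed and fresh libraries overlapped, and the lowest of them was 5.05 times the highest uncompressed one. It rose against 5d-U (log2 fold change 3.47, SE 0.5, edgeR adjusted p = 0.00027) and fell from F to 2d-U (log2 fold change -3.41, SE 0.49, edgeR adjusted p = 0.00027), but 44.1% of its exon bases are shared with Wdr61 on the opposite strand. Hspa2, an Hsp70 best known from testis, had 51.9, 47.9 and 42.6 RPKM for F, 1.64, 1.72 and 2.36 for 2d-U, 1.38, 3.29 and 1.35 for 5d-U and 42.9, 25.4 and 21.97 for 2+3d-C. Its lowest fresh or compressed library was 6.69 times its highest uncompressed one (log2 fold change 3.9, SE 0.5, edgeR adjusted p = 0.000128). Both genes held their call against 5d-U in 20 of 20 alternative settings.

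Dnajb2, which passes ubiquitinated clients to the proteasome, had 12.6, 8.28 and 9.22 RPKM for F, 5.48, 4.96 and 5.67 for 2d-U, 5.26, 8.302 and 5.08 for 5d-U and 30.4, 30.7 and 15.1 for 2+3d-C. Every compressed library was above all others, F included (log2 fold change 2.03, SE 0.43, edgeR adjusted p = 0.00388), without a call against F. Dnajc25 had 30.8, 7.83 and 7.43 RPKM for F, 10.97, 12.6 and 10.1 for 2d-U, 9.13, 6.499 and 14.1 for 5d-U and 27.1, 72.7 and 82.2 for 2+3d-C (log2 fold change 2.61, SE 0.6, edgeR adjusted p = 0.00678), with 2+3d-C 4 at a lower level than 2+3d-C 5 and 10, and its change was 1.93 with the term for the silent-family libraries (edgeR adjusted p = 0.135). Dnajc27, a small GTPase with a J domain, had 5.11, 3.74 and 5.51 RPKM for F, 2.06, 1.11 and 1.698 for 2d-U, 1.18, 0.9395 and 1.24 for 5d-U and 11.4, 3.23 and 6.98 for 2+3d-C (log2 fold change 2.69, SE 0.57, edgeR adjusted p = 0.00406). With only the 8 libraries of few silent-family reads, Dnajb2 and Dnajc27 were at 1.62 and 2.94 (edgeR adjusted p = 0.178 and 0.15). The rise of Dnajc27 over 2d-U (log2 fold change 2.15, SE 0.56, edgeR adjusted p = 0.0124) was lost without 2d-U 2, 2d-U 3 or 2+3d-C 4 (1.648 without the last, 0.0739). Dnajc5, the cysteine string protein of secretory vesicles, had 16.1, 17.5 and 19.1 RPKM for F, 12.5, 6.11 and 9.51 for 2d-U, 6.39, 12.9 and 10.4 for 5d-U and 35.4, 12.7 and 29.9 for 2+3d-C and overlapped between the groups (log2 fold change 1.39, SE 0.45, edgeR adjusted p = 0.0395), and the call was lost with any library left out except F 1 or 2+3d-C 5 (1.09 without 2+3d-C 4, 0.16).

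By family, the calls in 2+3d-C against 5d-U, where 9.14% of all genes were higher and 13.4% lower, were 6 higher and 1 lower of 11 Hsp70 genes, 4 higher of 10 tested DnaJB genes, 1 higher of 4 DnaJA genes, 1 higher of 3 Hsp110 genes, none of 3 Hsp90 genes, 3 lower of 6 tested small heat shock proteins and 2 lower of 2 chaperonin genes. Hspb11, counted apart, was lower too. The 26 tested DnaJC genes split into 4 higher (15.4%) and 8 lower (30.8%). Most of the other families are too small for a share to be set against that of all genes. The untested members, Dnajb7, Dnajb8, Dnajb13, Dnajc5b, Dnajc5g and Hspb9, were at most 0.659 RPKM in any library.

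Co-chaperones and regulators outside the families were counted from a list of 21 genes. Relative to 5d-U, 4 rose and 7 fell in 2+3d-C, beside 9.14% and 13.4% of all genes. From F to 2d-U 12 rose and 2 fell, beside 10.6% and 33.3%. Bag3, which joins Hsp70 to Hspb8, had 281, 207 and 107 RPKM for F, 29.8, 22.5 and 23.5 for 2d-U, 26.7, 18.4 and 13.02 for 5d-U and 348, 399.5 and 326 for 2+3d-C. Its compressed libraries were above all others, F included, and the lowest was 10.9 times the highest uncompressed one (log2 fold change 4.21, SE 0.47, edgeR adjusted p = 4e-05). Hsf1, the transcription factor of the heat shock response, had 12.1, 10.99 and 10.8 RPKM for F, 19.8, 20.9 and 22.2 for 2d-U, 12.4, 11.9 and 9.198 for 5d-U and 45.5, 34.2 and 44.2 for 2+3d-C, with every compressed library above every other. It rose against 5d-U (log2 fold change 1.89, SE 0.34, edgeR adjusted p = 0.0013) and against F (log2 fold change 1.87, SE 0.34, edgeR adjusted p = 0.00841), and Bag5, an exchange factor, did the same (log2 fold change 2.36, SE 0.41, edgeR adjusted p = 0.00107; log2 fold change 1.83, SE 0.4, edgeR adjusted p = 0.0208). Fkbp4, an immunophilin partner of Hsp90, went the other way (log2 fold change -1.92, SE 0.36, edgeR adjusted p = 0.00179), with 58.1, 49.9 and 41.7 RPKM for F, 353, 319.5 and 321 for 2d-U, 197, 362 and 300.2 for 5d-U and 68.7, 87.4 and 70.96 for 2+3d-C, while Stip1, which couples Hsp70 to Hsp90, and Serpinh1, the collagen chaperone, were not called (log2 fold change 0.23, SE 0.36, edgeR adjusted p = 0.644; log2 fold change -0.54, SE 0.51, edgeR adjusted p = 0.415).

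The CCT chaperonin, the cytosolic barrel that folds actin and tubulin, showed no such pattern. All 8 subunit genes rose from F to 2d-U and from F to 5d-U, where 10.6% and 11.6% of all genes rose. None was called between 2+3d-C and 5d-U or 2d-U. Cct5 had 243, 147 and 132 RPKM for F, 531, 512 and 524 for 2d-U, 426, 567 and 479 for 5d-U and 313, 690.4 and 452 for 2+3d-C. The compressed libraries overlapped both uncompressed groups for Cct5 (log2 fold change -0.02, SE 0.39, edgeR adjusted p = 0.978), and against F it was higher (log2 fold change 1.48, SE 0.39, edgeR adjusted p = 0.0413), as was Cct7 (log2 fold change 1.5, SE 0.36, edgeR adjusted p = 0.0296). Immediate-early genes, which respond to stimuli without new protein synthesis, moved with the inducible and ER members. In 2+3d-C relative to 5d-U 8 of 8 rose, beside 9.14% of all genes, and 8 of 8 fell from F to 2d-U, beside 33.3%. Their summed level was 11350 to 14060 CPM for F, 640 to 823 CPM for 2d-U, 709 to 927 CPM for 5d-U and 12130 to 21780 CPM for 2+3d-C, and its part in the levels of the chaperones was not tested.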

How the data were processed

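The authors deposited a table of raw counts per gene for each library (SMART-seq v4, single-end reads), made with featureCounts 1.6.4 on GENCODE vM23 genes of mm10, without strand and without reads that map to several places or genes. A merged table of the series was not used. From the counts, RPKM and CPM were computed with TMM library sizes, and all 12 libraries were fitted together in edgeR 4.0.16 (R 4.3.3) by its quasi-likelihood test without covariates, after filterByExpr, which left 22635 genes. The adjusted p is that of Benjamini and Hochberg over those genes.

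Named genes were every inducible and constitutive member, the 5 largest rises and falls called in each comparison, the 5 members highest by RPKM, and the leading genes of other lists by CPM or p against 5d-U. The remaining members described, among them Dnajb2, Dnajc5, Dnajc19, Dnajc25, Dnajc27 and Hspb11, were named after their values were seen. The members and lists were chosen with earlier results of these data known. The alternatives were DESeq2 1.42.0, library size without TMM, no count filter, each pair of groups alone, a replicate block, subtraction of or a term for silent-family reads, and leaving out each library. A fit of 8 libraries and the 2-unit promoter element were added after the data were seen. Promoters came from RefSeq (GRCm38.p6) by gene symbol. Transcript windows of 75 bases were compared exactly. The replicate numbers of the labels were not shown to pair libraries. Cells of a sort were divided at random among conditions, so libraries of different groups may share a sort, which the p-values without a block do not take into account. Counts of reads limit precision for members with few reads, where a floor of 3 reads per library or an exact 95% interval is given.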

Additional observations from a re-analysis of the deposited data

How the results depend on the processing

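Over 110 called member values, 1834 of 2189 results under alternative settings kept direction and call, 353 kept direction only and 2 reversed. Members higher in 2+3d-C against 5d-U (16) numbered 12 to 21 with 1 library left out, 8 with a term for the silent-family libraries and 9 in the 8 libraries with few such reads. Members lower (15) numbered 6 to 17 with 1 library left out (6 without 5d-U 6, 8 without 2+3d-C 4 or 10), 7 with the term and 4 in the 8 libraries, where 3 inducible members were higher. Against 2d-U, 14 to 23 were higher (19) and 4 to 8 lower (6) with 1 library left out, and 13 lower without TMM. In 2+3d-C against F, members higher (1) numbered 0 to 15 with 1 library left out, 6 by DESeq2, and 0 with the 2 groups alone, without TMM, with the term and in the 8 libraries. Members lower (0) numbered 0 to 7 with 1 library left out, 5 by DESeq2, 3 without the count filter, 1 with the 2 groups alone and 1 in the 8 libraries. In 5d-U against 2d-U, members higher (1) numbered 0 to 6 with 1 library left out, 7 by DESeq2, 7 without the filter, 3 with the 2 groups alone, and 0 without TMM, after the subtraction, with the term and in the 8 libraries, and members lower were 0 with any library left out. In 2d-U against F, 7 to 14 were higher (11) and 15 to 21 lower (17) with 1 library left out, with 7 higher under the term and 2 in the 8 libraries. In 5d-U against F, 8 to 16 were higher (14) and 9 to 11 lower (10), with 1 higher and 4 lower in the 8 libraries, where F and 5d-U hold 1 library each, assumed to vary like the other groups. The share of all genes called was not computed for these settings, apart from DESeq2 in 2+3d-C against F and in 5d-U against 2d-U. The counts may therefore follow the overall rate of calls. The causes were not tested.

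With the replicate block, 3 members were lower in 2+3d-C against 5d-U, 1 was lower against 2d-U and 1 against F, and none was higher in 2d-U or 5d-U against F. Hspe1 and Dnajc2 reversed in 2+3d-C against 5d-U, at 0.53 and 0.0754 (edgeR adjusted p = 0.792 and 0.976). The numbers were not shown to pair libraries: no 2 groups share 3 numbers, 2+3d-C and 5d-U share none, and the 6 same-numbered pairs of libraries correlated at -0.424 to 0.032 in their deviations from the group means. Of the 31 members called in 2+3d-C against 5d-U, 14 kept their call with the block, 15 with the term and 13 in the 8 libraries. Depth limited members with few reads, such as Dnajc28 and Hspb3.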
